A study of Caenorhabditis elegans with 6 samples.

Results

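The transcriptome of unirradiated Caenorhabditis elegans was described from the 2 libraries labelled 0 Gy, out of 6 RNA-sequencing libraries in a series on very high doses of X-rays. The 2 libraries were chosen by their dose label alone, and no measured value entered the choice. The other 4 libraries came from worms given 200 Gy or 400 Gy from a linear accelerator, 2 libraries at each dose, where Gy (gray) is the unit of absorbed dose. All 3 groups were whole hermaphrodites, about 1000 synchronised worms at 24 h past the L4 larval stage, grown on NGM agar plates, and no mutation, transgene or drug is named for any of them. Neither the strain nor the time between exposure and harvest is stated in the labels. In what follows, library 1 and library 2 are the 0 Gy libraries with those numbers. The labels do not say whether they came from separate cultures, so the spread between them may be partly technical. RNA came from whole animals, so fewer cells of a type and less RNA per cell cannot be told apart.

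A young adult hermaphrodite is a small animal built around a large gonad. The germ cells that matured in the larva have already become sperm, and the adult gonad makes only oocytes, which take up yolk that the intestine secretes. The epidermis lays down the adult cuticle, a sheath made mostly of collagens, at the last moult, while body wall muscle, pharynx, neurons and intestine no longer divide. Messenger RNA of an adult therefore mixes a growing germline with the steady activity of mature tissues, and many genes of larval, male or sensory function are known to be used in few cells or at other stages.

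Totals were 10270678 counts in library 1 and 9930689 in library 2, so that 1 count equals 0.0974 and 0.101 CPM, that is, counts per 1000000 counts of the library. A gene listed at 0 could still be present at up to 3 counts, which is 0.292 CPM in library 1 and 0.302 CPM in library 2. Such floors and the intervals given below cover counting error only. A gene is called detected here at 1 CPM or more in both libraries, and silent at 0 counts in both, which means not seen at this depth. Levels of different genes are compared in RPKM, CPM per 1000 bases of the length in the table, while shares are percent of all counts and favour long genes. Of 45292 listed genes, 12894 were detected, 24940 were silent (55.1%) and 7458 lay between. Among the 19444 protein-coding genes 12243 were detected (63.0%) and only 2282 were silent (11.7%), with a median of 21.7 RPKM for the detected ones. Most silent genes of the whole table were non-coding: of the 15363 genes annotated as piRNA 95.3% were silent, and of 607 annotated as tRNA 90.6%.

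Counts were spread over many genes. The 10 most abundant genes held 6.44% of counts in library 1 and 11.7% in library 2, and the 1000 most abundant held 53.95% and 55.49%. It took 811 genes in library 1 and 714 genes in library 2 to reach 50% of counts. Levels of at least 1000 RPKM were reached by 176 and 183 genes.

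The 30 genes with the highest mean RPKM were 11 cytosolic ribosomal proteins, 2 yolk genes, 2 collagens, 1 ribosomal RNA and 14 genes of none of the lists. The ribosomal RNA gene rrn-3.1 came first, at 3071 RPKM in library 1 and 12287 in library 2. It held 1.08% and 4.31% of counts, which was the largest ratio in favour of library 2 among abundant genes. The overlapping non-coding gene F31C3.14, on chromosome I at 15067668 to 15068355 within and just past rrn-3.1 (15064838 to 15068346), followed the same pattern at 1825 and 6524 RPKM. Reads of these genes cannot be told apart by position, because the library kit does not mark strand. The same kit selects RNA with a poly(A) tail, so the level of rrn-3.1 is not a measure of ribosomal RNA in the worms. Of 20 listed ribosomal RNA genes 17 were silent, and rrn-3.1 held 99.6% of their mean CPM.

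Below the ribosomal RNA, the most abundant messages included genes of digestion, lipid binding and protein synthesis. spp-5, a saposin-like protein of the family that includes pore-forming antimicrobial peptides, stood at 5251 RPKM in library 1 and 8104 in library 2. C08F11.11, called ule-4 in RefSeq, stood at 4469 and 6638 RPKM. asp-1, an intestinal aspartyl protease, stood at 4188 and 5975 RPKM. All 3 were higher in library 2. eef-1A.1, the elongation factor that carries aminoacyl-tRNA to the ribosome, was at 5522 and 4479 RPKM, higher in library 1. far-2, a secreted fatty acid and retinol binding protein, was at 4231 and 5055 RPKM. The ribosomal protein gene rps-25 was at 4612 and 4444 RPKM, with one of the narrowest spreads of these genes. Other members of the leading 30 were C17F4.7 (3669 and 4683 RPKM), the galectin lec-6 (3381 and 4702 RPKM) and the cyclophilin cyn-7 (3893 and 3453 RPKM). The small heat shock protein gene sip-1 was at 4867 RPKM in library 1 and 2521 in library 2. Mitochondrial function was represented by ant-1.1, the ADP/ATP carrier, at 2888 and 2657 RPKM.

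Ranking by share of counts instead brought up longer genes. vit-6, vit-2 and rrn-3.1 held the largest shares, followed by eef-1A.1 with 0.769% and 0.624% of counts. The chaperone gene daf-21, which encodes Hsp90, held 0.684% and 0.355%, and eef-2, the translocation factor of the ribosome, 0.371% and 0.224%. Of the first 30 genes by share of counts, 17 were also among the first 30 by RPKM.

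**Figure D1:**
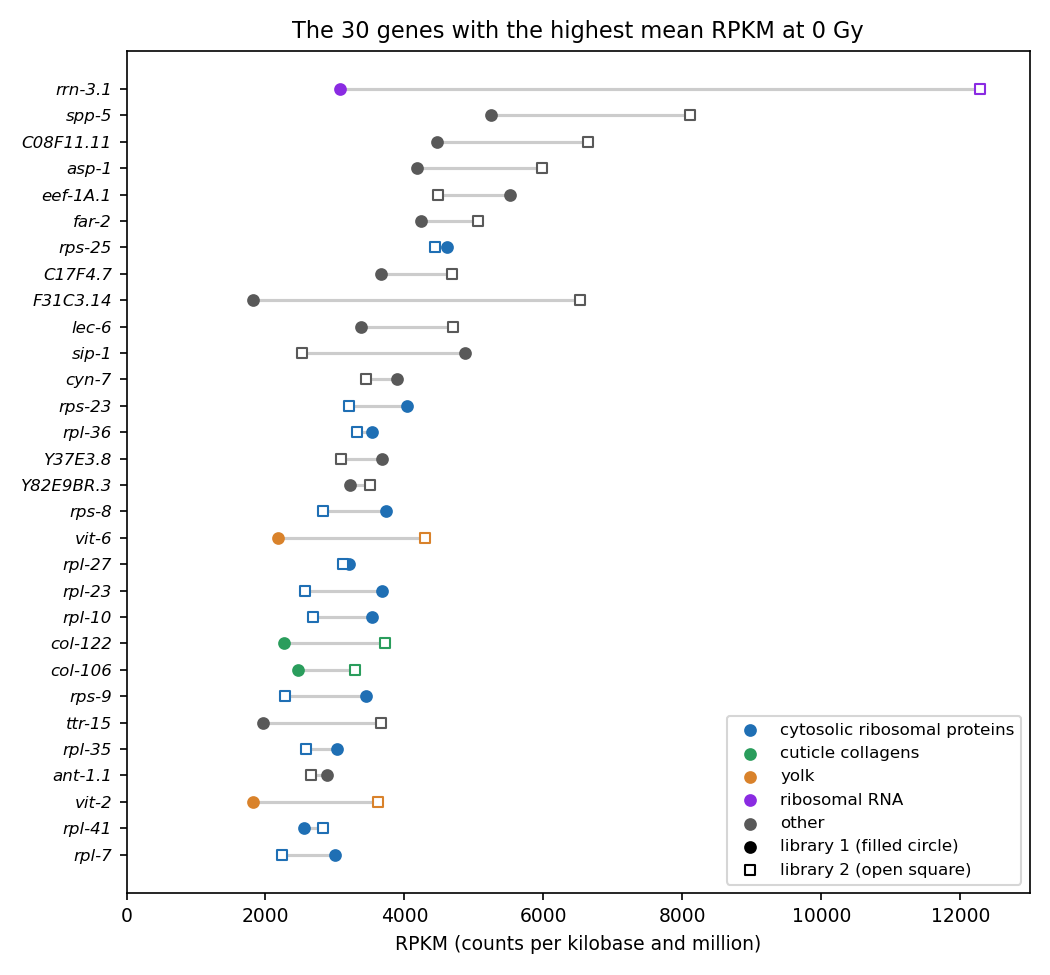
The 30 genes with the highest mean RPKM at 0 Gy, with RPKM on a linear axis, a point for each of the 2 libraries and colours for the gene lists. rrn-3.1 and F31C3.14 are far apart between the libraries (3071 and 12287 RPKM for rrn-3.1), while rps-25 is nearly the same in both (4612 and 4444 RPKM).

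Counts of the unirradiated adult were summed over 7 gene classes. The yolk, germline and body wall muscle classes were chosen lists of 6, 73 and 48 genes, while the others took all genes of certain names. A share covers the listed genes only, so it depends on the list and is not the share of a tissue. Cytosolic ribosomal proteins held the most, 7.97% of counts in library 1 and 6.01% in library 2 (6.99% ± 1.39, SD, n = 2). Yolk proteins held 2.43% and 4.76% (3.60% ± 1.65, SD, n = 2), and cuticle collagens 2.98% and 4.08% (3.53% ± 0.774, SD, n = 2). Germline and oocyte genes held 3.25% and 1.65% (2.45% ± 1.13, SD, n = 2). The order of these last 3 classes differed between the libraries, so their shares of counts do not differ beyond their spread. Body wall muscle genes held 0.947% and 1.22% (1.08% ± 0.195, SD, n = 2), below all of these in both libraries. As shares of the per-length total the order of muscle and yolk turned, with 0.923% and 1.17% for muscle and 0.456% and 0.901% for yolk. By that measure collagens (2.98% and 4.09%) stood above germline genes (2.22% and 1.23%), and germline genes above yolk, in both libraries. Sperm genes were the lowest of the 7, with 0.00850% and 0.00640% for the major sperm proteins and 0.0294% and 0.0251% for other sperm genes. No gene stood in more than 1 of the lists.

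**Figure D2:**
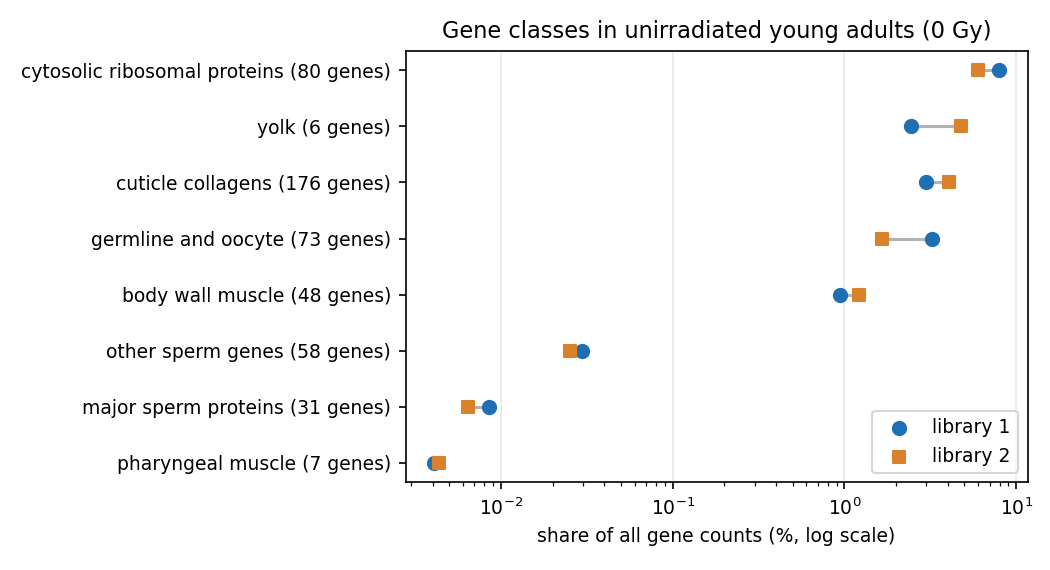
Share of all counts held by each gene class at 0 Gy, in percent on a log axis, with a point for each of the 2 libraries. Ribosomal proteins (7.97% and 6.01%) lie far to the right of the major sperm proteins (0.00850% and 0.00640%), and the points of yolk and of the germline genes are the most widely spaced. Pharyngeal muscle (0.00406% and 0.00437%) is added at the bottom.

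Yolk came from 6 vitellogenin genes, all detected, and 5 of the 6 lie on the X chromosome. Vitellogenins are lipoproteins made in the adult hermaphrodite intestine and carried to the oocyte. vit-6, the autosomal member (chromosome IV, 8261173 to 8266367), stood at 2177 RPKM in library 1 and 4299 in library 2. vit-2 (X, 5101043 to 5106078) stood at 1820 and 3618 RPKM, and vit-5 at 750 and 1413 RPKM. These 3 genes held 95.6% and 95.8% of all yolk counts, although the genes have nearly equal lengths. vit-3 was at 128 and 241 RPKM, vit-4 at 63.3 and 126 RPKM and vit-1 at 27.9 and 53.9 RPKM, so that the mean RPKM of vit-6 was 79.2 times that of vit-1. Each of the 6 genes was higher in library 2, and their order was the same in both. vit-3, vit-4 and vit-5 are close in sequence, and the handling of reads that fit several copies is not stated in the labels, so their split is uncertain. rme-2, the receptor by which oocytes take up yolk, ran the other way, with 294 RPKM in library 1 and 94.0 in library 2.

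Cytosolic ribosomal protein genes were nearly all abundant. Of 80 listed genes 78 were detected, their median was 1627 RPKM, and 71 reached 1000 RPKM. In mean RPKM 76 of the 80 lay between 500 and 5000. The 31 genes of the small subunit had a median of 1835 RPKM and the 45 of the large subunit under plain rpl names 1625 RPKM. Besides rps-25, the highest were rps-23 at 4040 and 3199 RPKM, rpl-36 at 3531 and 3316 RPKM and rpl-27 at 3200 and 3113 RPKM. The members outside the common range were few. rpl-37 had 1 count in library 1 and 0 in library 2, and rpl-42 had 7 and 3 counts. rpl-24.2 was at 140 and 133 RPKM and rpl-25.1 at 341 and 363 RPKM. Those 4 names were picked out after their values were seen. The names in the table are older than the current ones: W01D2.1, now rpl-37.1, was at 327 and 241 RPKM, and Y37E3.8, now rpl-27A, was at 3670 and 3087 RPKM and is one of the 14 unlisted genes of the leading 30.

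A few cuticle collagens were abundant and most were not. Of 176 listed genes 134 were detected with a median of 40.7 RPKM, 37 lay between and 5 were silent, namely col-9, col-52, col-126, col-127 and col-171. Only 13 reached 1000 RPKM, and 10 genes held 55.2% of all collagen counts. col-122 was highest, at 2263 RPKM in library 1 and 3717 in library 2. col-106 followed at 2465 and 3282 RPKM, and col-101 at 1891 and 2771 RPKM. These 3 genes lie on chromosome IV, and each was higher in library 2. col-181 stood at 1949 and 2469 RPKM and col-140 at 1721 and 2638 RPKM. A few well-known members, chosen after their values were seen, are known as markers of stage. col-19, which is switched on at the adult moult, was at 773 and 1016 RPKM. dpy-7, whose message peaks before each larval moult, was at 69.2 and 88.4 RPKM. bli-1, a collagen of the struts that join the layers of the adult cuticle, was at 0.855 and 1.59 RPKM.

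All 73 germline and oocyte genes were detected, at a median of 114 RPKM, against 21.7 RPKM for all detected protein-coding genes. The highest encode proteins of the oocyte and of the eggshell that it will build. cey-2, a Y-box RNA-binding protein of the germline, stood at 2916 RPKM in library 1 and 1520 in library 2. cpg-2, a chondroitin proteoglycan of the eggshell, stood at 2753 and 979 RPKM. perm-4 and perm-2, needed for the permeability barrier of the eggshell, were at 1578 and 1317 RPKM and at 1538 and 1215 RPKM. cey-3, another Y-box protein of the germline, was at 1597 and 1162 RPKM. Each of these 5 was higher in library 1. Regulators of germ cell fate, chosen here after their values were seen, lay lower. pos-1, a zinc-finger protein of the early embryo, was at 1048 and 645 RPKM. mex-5 was at 318 and 143 RPKM and gld-1, a translational repressor in meiotic germ cells, at 271 and 101 RPKM. pgl-1 and glh-1, components of germ granules, were at 187 and 80.5 RPKM and at 117 and 62.7 RPKM. glp-1, the Notch receptor of germline stem cells, was at 70.2 and 39.9 RPKM. Others of the list were lower, such as gld-2, a poly(A) polymerase of the germline, at 14.5 and 8.84 RPKM and the Pumilio-type repressor fbf-1 at 13.98 and 5.51 RPKM.

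Sperm genes were present at low levels in these worms. Detected members had a median of 8.07 RPKM for the major sperm proteins and 7.81 RPKM for the other sperm genes, against 21.7 RPKM for all detected protein-coding genes. The major sperm proteins move the crawling sperm cell and signal to the oocyte, and their genes are transcribed only while sperm are being formed. The 31 listed genes together had 873 counts in library 1 and 636 in library 2. Their share was 0.00850% of counts (Wilson 95% interval 0.00795 to 0.00908) and 0.00640% (0.00593 to 0.00692). Of the 31 genes 23 were detected (74.2%, against 63.0% of all protein-coding genes). Of the rest 5 lay between and 3 were silent, namely msp-58, msp-79 and msp-113. The highest, msp-36, had 89 and 62 counts, or 22.6 and 16.3 RPKM, followed by msp-76 with 60 and 48 counts and msp-50 with 67 and 35 counts. These genes are near-identical copies, so the split among them is uncertain.

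The 58 other sperm genes showed the same low level. Of them 34 were detected (58.6%), 18 lay between and 6 were silent: msd-1, msd-3, nspd-8, spe-29, ssp-9 and ssp-11. The highest was spe-39 at 43 and 30.3 RPKM, a vesicle transport gene that also acts outside sperm. nspd-2 followed at 28.3 and 32.1 RPKM, nspd-1 at 28.3 and 25.1 RPKM, ssp-37 at 25.8 and 26.4 RPKM and msd-4 at 21.2 and 22.6 RPKM. spe-9 and fer-1 were chosen after their values were seen. spe-9, a sperm surface protein needed to fertilise, had 11 and 9 counts. fer-1, which acts in the fusion of sperm vesicles, had 12 and 9 counts. Of the 89 genes in both sperm lists none lies on the X chromosome. Genes used in males had few counts. Of 12 listed, 3 were detected (25%, against 63.0% of all protein-coding genes) and 8 lay between. The silent one was lov-1, a receptor of male sensory neurons. Together the 12 genes had 84 and 65 counts. Genes used in few cells can be low whatever the sex, so these counts are no test of the label. her-1, the signal that sets male fate, was the highest at 3.13 and 2.86 RPKM. mab-3, a male differentiation factor, was at 1.62 and 1.20 RPKM, and try-5, a seminal fluid protease, at 1.29 and 1.23 RPKM.

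All 48 body wall muscle genes were detected, with a median of 32.9 RPKM. The 5 highest were pat-10, mlc-3, cpn-3, mlc-2 and act-2. pat-10, the troponin C of body wall muscle, stood at 1925 RPKM in library 1 and 2522 in library 2. mlc-3, a myosin light chain, was at 1093 and 1415 RPKM, and cpn-3, a calponin-like protein, at 880 and 1112 RPKM. mlc-2 followed at 812 and 1056 RPKM. The other muscle genes named here were chosen after their values were seen. unc-54, the major myosin heavy chain, was at 95.9 and 168 RPKM and unc-15, paramyosin, at 102 and 157 RPKM. myo-3, the heavy chain at the centre of the same filaments, was at 10.3 and 14.8 RPKM. The mean RPKM of mlc-3 was 9.49 times that of unc-54, and that of unc-54 was 10.5 times that of myo-3. The 4 actin genes gave act-2 at 944 and 700 RPKM, act-4 at 580 and 951 RPKM, act-3 at 28.7 and 35.3 RPKM and act-1 at 15.6 and 16.8 RPKM. act-1, act-2 and act-3 are near-identical neighbours on chromosome V, so the 50.7-fold ratio of mean RPKM between act-2 and act-1 is uncertain.

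Among the muscle genes, level tended to fall as length rose. The 11 genes under 1000 bases had a median of 660.7 RPKM, the 23 genes from 1000 to 3000 bases 44.9 RPKM and the 14 genes over 3000 bases 3.22 RPKM. Across all detected protein-coding genes the same 3 length classes had medians of 32.3, 18.9 and 12.4 RPKM. The Spearman correlation of length with mean RPKM was −0.69 across the 48 muscle genes, −0.54 across the germline list, 0.064 across the ribosomal proteins and −0.24 across all detected protein-coding genes. Genes are not independent replicates and share both libraries, so these are descriptions. The giant proteins of the sarcomere were the lowest. ttn-1, a titin, was at 0.139 and 0.367 RPKM, unc-22 (twitchin) at 0.672 and 2.03 RPKM, and unc-89 (obscurin) at 0.736 and 2.07 RPKM. All 3 were higher in library 2.

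**Figure D3:**
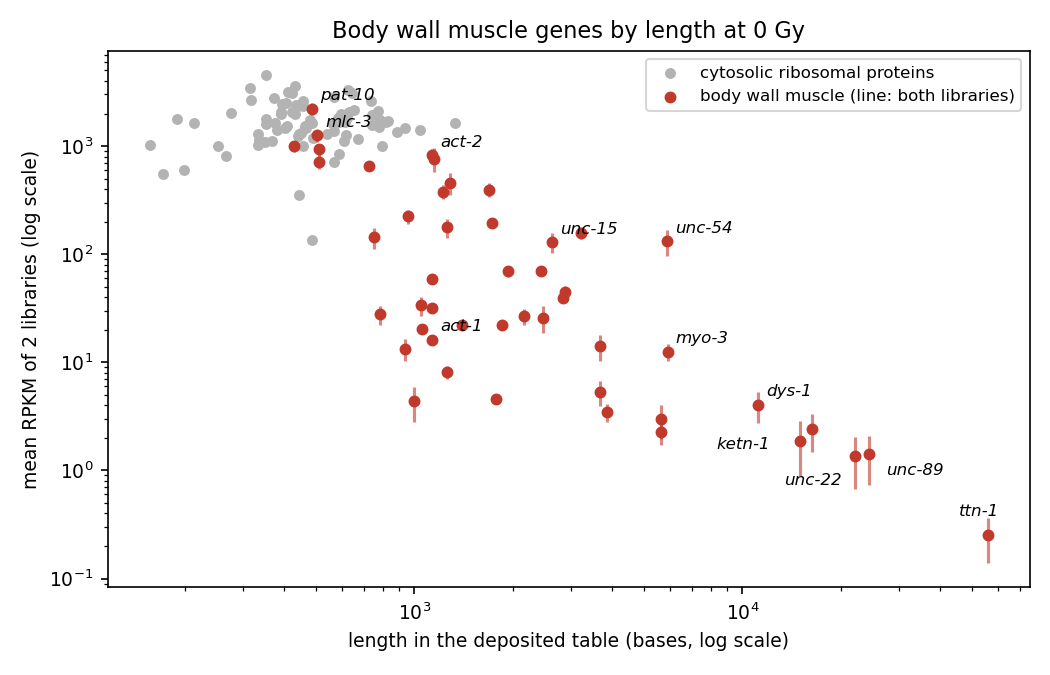
Mean RPKM at 0 Gy against length in bases, both on log axes, for body wall muscle genes (red, with a line joining the 2 libraries) and cytosolic ribosomal proteins (grey). Muscle genes descend from pat-10 (1925 and 2522 RPKM) to ttn-1 (0.139 and 0.367 RPKM) with length, while most ribosomal proteins lie between 500 and 5000 RPKM.

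Pharyngeal muscle, which pumps food and has myosins of its own, gave low values. The 7 genes together held 0.00406% of counts in library 1 (Wilson 95% interval 0.00369 to 0.00447) and 0.00437% in library 2 (0.00398 to 0.00480). tni-4, a troponin I of the pharynx, was at 30.96 and 19.6 RPKM, and tnc-2, its troponin C, at 5.04 and 6.25 RPKM. myo-2, a pharyngeal myosin heavy chain, was at 1.43 and 2.21 RPKM, and the mean RPKM of unc-54 was 72.7 times as high. ceh-22, a homeobox gene of the pharynx, had 1 and 5 counts.

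Markers of other tissues and of the early embryo were detected to different extents. The detected share was 95.7% for the intestinal list, 92.3% for the epidermal, 78.6% for the neuronal and 54.5% for the early embryo list. Among all protein-coding genes 63.0% were detected and 11.7% were silent. Of 23 intestinal markers 1 was silent, the metallothionein mtl-2, and after asp-1 the highest were asp-5, another aspartyl protease, at 1501 and 1413 RPKM and the lysozyme lys-4 at 992 and 1352 RPKM. The chosen neuronal markers together held 0.201% and 0.208% of counts, which is not a measure of all neuronal RNA. Of 42 neuronal genes 33 were detected and none was silent, and snb-1, the synaptic vesicle protein synaptobrevin, was highest at 456 and 395 RPKM. sbt-1, a chaperone of neuropeptide processing, was at 153 and 243 RPKM. tdc-1 and tbh-1, the enzymes that make tyramine and octopamine, chosen after their values were seen, were at 190 and 103 RPKM and at 149 and 123.4 RPKM, and both genes are also known from sheath cells of the gonad. Genes used in very few neurons, chosen here after their values were seen, ranged widely: che-1, which specifies 1 pair of taste neurons, had 1 and 0 counts, tph-1, which makes serotonin, 0 and 2, and the dopamine transporter dat-1 4 and 0, whereas the tubulin genes mec-7 and mec-12, best known from the touch neurons, were at 114.7 and 97.7 RPKM and at 86.2 and 80.4 RPKM. Of 26 epidermal and moulting genes 24 were detected, led by cut-2 at 155 and 224 RPKM and mlt-8 at 87.4 and 106 RPKM. Of 22 genes of the early embryo 12 were detected and 3 were silent (hlh-27, med-1 and sdz-23), with sdz-27 highest at 74.5 and 128 RPKM.

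The families with the most silent members were those of small RNAs and sensory receptors. Chemoreceptors, membrane proteins that worms use to smell and taste and that are mostly made in a few neurons, had 832 silent genes of 1340 (62.1%), and only 25 were detected. The 2 highest were srw-86 at 66.7 and 62.0 RPKM and str-176 at 14.3 and 18.7 RPKM. All 1340 together held 0.0205% and 0.0267% of counts. By subfamily the silent share ran from 82.4% of the 68 srz genes, 82.1% of the 39 srj genes and 77.8% of the 72 srbc genes down to 25% of the 16 srb genes, leaving out srn with 1 gene. Of 256 microRNA genes 213 were silent (83.2%), and of 802 genes under transfer RNA names, pseudogenes included, 730 (91.0%). Of 30 spliced leader genes 25 were silent (83.3%), and of 15365 piRNA genes of the 21ur type 14641 (95.3%). As background, the products of all these RNA genes are short or lack a long poly(A) tail, and libraries of this kit select poly(A) RNA. The part of that step in these counts was not tested. Histone messages made during DNA replication also lack a poly(A) tail, and 38 of 72 histone genes were silent (52.8%). Many histone genes are near-identical copies, so a count of 0 or a level of a single one is uncertain. The highest histone genes were his-72, a replication-independent H3.3 variant, at 633 and 526 RPKM and his-37, an H4 gene, at 467 and 645 RPKM. These 6 groups were the only ones of 42 families with over 50% silent members.

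At the other end stood machines that every cell uses. All 32 proteasome genes, all 19 vacuolar ATPase genes and all 66 mitochondrial ribosomal protein genes were detected. Neuropeptide genes were widely present, with 27 of 31 flp genes and 36 of 44 nlp genes detected, and nlp-40, a peptide of the intestine that times defecation, reached 888 and 1046 RPKM. Insulin-like genes were sparse by comparison, with 10 of 40 detected and 7 silent. For reference, 63.0% of all protein-coding genes were detected and 11.7% were silent. Of 277 nuclear hormone receptor genes 165 were detected and 34 silent, and of 65 homeobox genes under ceh names 34 and 12. Among genes for contact with microbes and toxins, 49 of 75 cytochrome P450 genes, 50 of 65 ugt genes and 32 of 44 gst genes were detected, and 51 of 249 C-type lectin genes were silent. clec-87 was at 2263 and 1323 RPKM, clec-63 at 1215 and 1606 RPKM and gst-1, a glutathione transferase, at 1253 and 1670 RPKM. In the guanylate cyclase family gcy, used mostly in sensory neurons, 10 of 32 were detected.

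**Figure D4:**
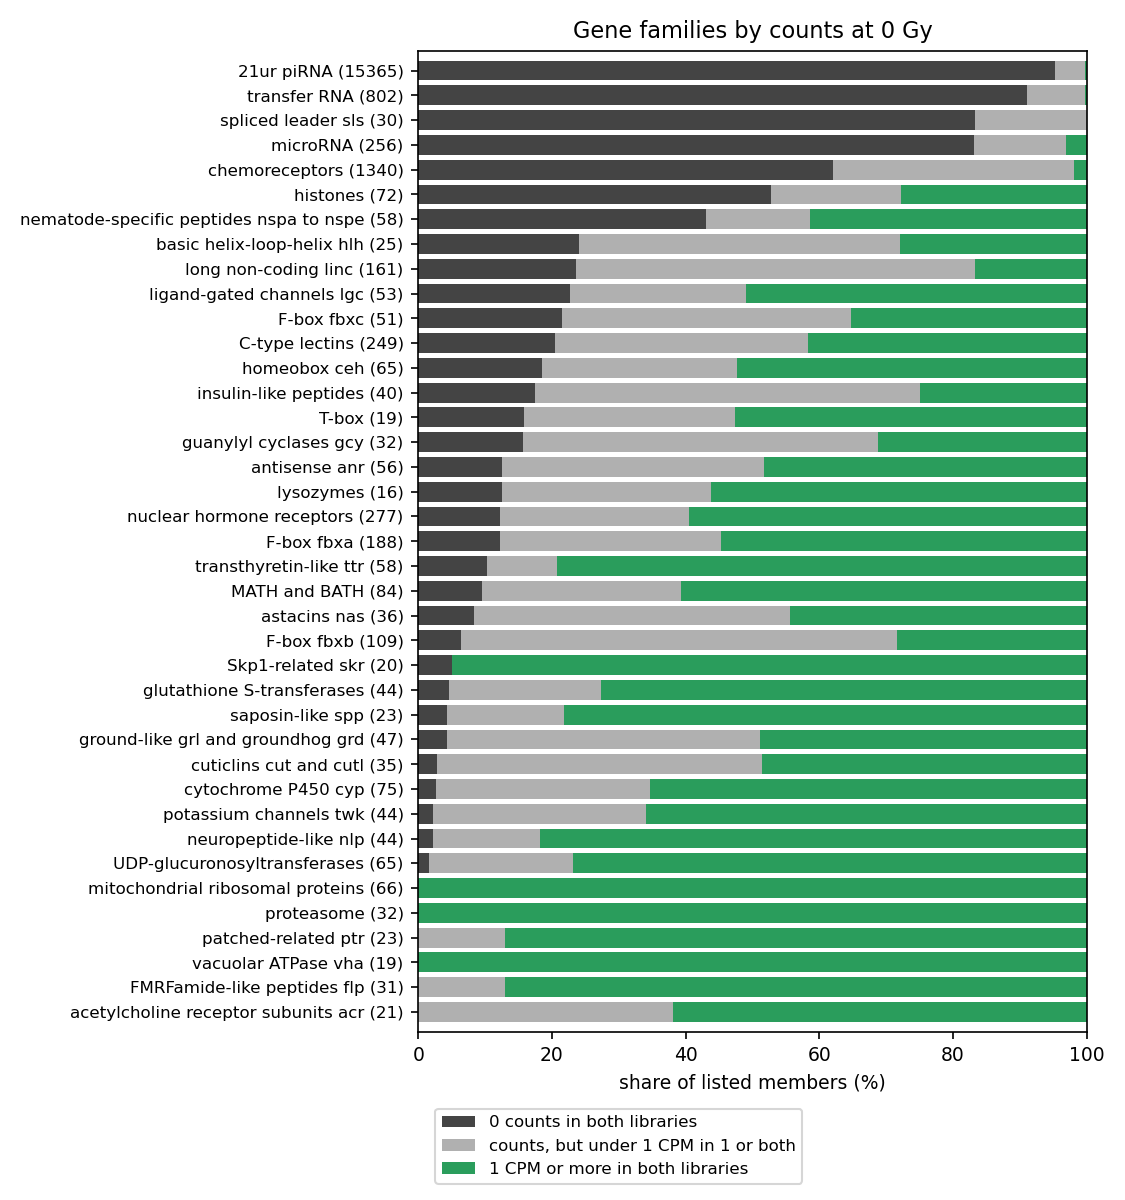
Share of the listed members of each family of 15 or more genes, in percent, that had 0 counts in both 0 Gy libraries (dark), some counts but under 1 CPM in 1 or both (grey), or 1 CPM or more in both (green). Small RNA genes and chemoreceptors are mostly dark (95.3% for 21ur, 62.1% for chemoreceptors), while proteasome and mitochondrial ribosomal genes are entirely green.

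Most of the detected 21ur genes lay over exons of messenger RNA. Of 50 detected 21ur genes 44 (88.0%) overlapped an exon of a protein-coding gene on either strand, against 63 of 1465 silent ones checked (4.30%), taken as every 10th of the silent genes. The most abundant detected microRNA gene, mir-354 on chromosome I, had 1662 and 1458 counts and lies in an exon of the ribosomal protein gene rps-20. Of the 8 detected microRNA genes 2 overlapped such an exon, the other being mir-356.1 in tomm-7. Neither of the 2 detected genes under transfer RNA names did. Counts of a small RNA gene within an exon cannot be told apart from counts of the host message.

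Protein-coding genes of the 6 chromosomes differed in how many were in use. Chromosome III had the smallest silent share, 4.10% of 2559 genes, and a median of 33.3 RPKM among its detected genes. Chromosome V had the largest, 22.8% of 4892 genes, and 604 of its 912 chemoreceptors were silent. Without chemoreceptors its silent share was 13.4%, still above the 8.65% on the X chromosome taken the same way. The X chromosome carried 2635 protein-coding genes (13.6% of those on chromosomes) and 8.40% of counts in library 1 and 11.1% in library 2, or 7.06% and 8.49% without its yolk genes. Its detected genes had the lowest median, 11.2 RPKM, although 65.6% of its genes were detected, more than the 62.8% on chromosome II. Germline genes were rare on X, with 2 of 73 (2.74%), as were ribosomal proteins with 2 of 80 (2.50%). Muscle genes were common there, with 14 of 48 (29.2%), and so were intestinal markers, with 6 of 23 (26.1%). A low use of X in the germline is a known trait of this species.

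The 2 unirradiated libraries differed from each other in several of these gene lists. With counts scaled by TMM, a method that aligns the bulk of genes, 92.1% of the detected genes were within 2-fold, and Pearson's r of log2 CPM across them was 0.972 (12894 genes of the same 2 libraries). The background was 641 genes over 2-fold higher in library 1 (4.97% of the detected) and 374 in library 2 (2.9%). Of all detected genes 51.05% were higher in library 1 at all. In the germline list 48 of 73 genes were over 2-fold higher in library 1 and 70 of 73 were higher at all, with a median log2 ratio of 1.22 against 0.013 for all detected genes. Ribosomal proteins were higher in library 1 in 77 of 78 cases with a median log2 ratio of 0.61, proteasome genes in 32 of 32 with 0.69 and major sperm proteins in 20 of 23 with 0.63. The median log2 ratio was −0.81 for yolk, −0.36 for intestinal markers, −0.36 for neurons, −0.31 for body wall muscle and −0.25 for epidermis, that is, higher in library 2. In the muscle list the 5 genes over 2-fold higher in library 2 were the longest, ketn-1, unc-68, unc-22, unc-89 and ttn-1, of 14990 to 55975 bases. All shorter muscle genes lay within 2-fold, and 8 of 48 were higher in library 1. Whether length, tissue or another property set these ratios was not tested. Collagens had a median of −0.096, with 48 of 134 genes higher in library 1, and −0.25 with scaling by library totals. Scaling by library totals put the median of all detected genes at −0.14, so that its sign turned. It lowered every ratio by the same amount, which turned none of the list medians named here. With 1 library on each side no test was possible. Between the libraries, chi-square per degree of freedom was 60.3 over 15076 genes, which is a spread beyond counting noise.

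Of the 10 largest ratios in favour of library 1 among 4526 genes of at least 50 mean CPM, 6 were in the germline list. puf-5, a Pumilio-type regulator in oocytes, had the largest, at 782 CPM in library 1 and 216 in library 2 (log2 ratio 2.01). egg-5 and egg-4, which act at the passage from oocyte to embryo, had log2 ratios of 1.92 and 1.82, puf-3 had 1.85, rme-2 had 1.80 and oma-1, a regulator of oocyte maturation, had 1.78. egg-4 and egg-5 are near-identical copies, so their split is uncertain. None of the 10 largest ratios in favour of library 2 belonged to the yolk, intestinal, neuronal, muscle or epidermal lists. rrn-3.1 was first with a log2 ratio of −1.84, followed by gst-4, a glutathione transferase often used as a marker of oxidative stress, at 53.0 and 195 CPM (−1.72). F31C3.14 had −1.68 and K08D12.6, called epic-2 in RefSeq, −1.62. let-805 had −1.40, and it encodes the myotactin that anchors muscle to the epidermis.

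**Figure D5:**
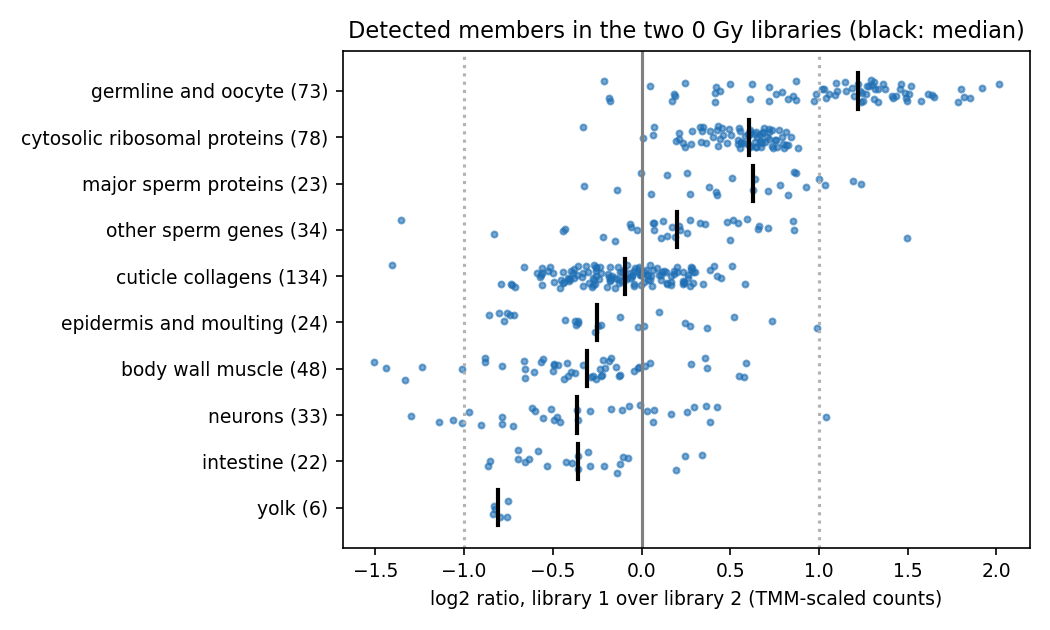
Log2 ratio of TMM-scaled counts, library 1 over library 2, for each detected member of 10 gene lists at 0 Gy, with black bars at the medians and dotted lines at 2-fold. Germline genes lie to the right (median 1.22) and yolk genes to the left (median −0.81), with collagens in between (median −0.096).

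Set beside the 4 irradiated libraries, no class share of the unirradiated worms differed past the threshold of 0.05. With 2 libraries against 4 an exact permutation test has 15 splits and cannot give less than p = 0.0667. Full separation of the 2 groups also arises in some of those splits, so the ranges below are descriptions. The smallest possible p was reached by body wall muscle (two-sided exact permutation p = 0.0667, 0.311 after Benjamini-Hochberg adjustment over 7 classes). Its share was 0.947% and 1.22% at 0 Gy and 1.72% to 1.84% in the irradiated libraries. Collagens were 2.98% and 4.08% at 0 Gy and 4.83% to 9.07% after irradiation (exact permutation p = 0.133, adjusted 0.311). Major sperm proteins held at most 0.00850% at 0 Gy and 0.00926% to 0.0449% in the irradiated libraries (exact permutation p = 0.133, adjusted 0.311). Other sperm genes held 0.0260% to 0.0886% there (exact permutation p = 0.2, adjusted 0.35), a range that overlaps the 0.0294% and 0.0251% of the unirradiated worms. Yolk (0.886% to 5.72%), ribosomal proteins (4.78% to 10.2%) and germline genes (1.09% to 3.75%) spanned the unirradiated values in the irradiated libraries, and their exact permutation p lay between 0.867 and 1. Ribosomal proteins lay above both unirradiated values at 200 Gy (10.2% and 8.68%) and below both at 400 Gy (5.22% and 4.78%). The test pools the 2 doses, so it cannot show opposite differences of this kind.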

How the data were processed

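RNA of whole worms was sequenced in 6 libraries, 2 each at 0, 200 and 400 Gy, and the 2 libraries at 0 Gy were described. The authors deposited a table with a read count and an RPKM value per gene and library. Per the labels' protocols, Trizol served for extraction and a TruSeq RNA kit for library preparation. Per the submitters' processing notes, the tools were TopHat2 2.0.13 and bcl2fastq and the build was WBcel235. No label names the counter, the annotation or the treatment of reads that fit several genes. Each deposited RPKM equals the count divided by the deposited length and the library total (largest relative deviation 5.05e-06). Of the lengths of protein-coding genes 94.7% are multiples of 3, so most appear to be coding lengths.

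From these values CPM, shares of counts with Wilson 95% intervals, and log2 ratios of TMM-scaled counts (edgeR 4.0.16, R 4.3.3, pseudocount 0.5 counts) were computed, with pandas 2.3.3, scipy 1.17.1 and Python 3.11.15, after tests on simulated data. Biotypes came from RefSeq, in which 44837 of 45292 names were found, and exon overlaps from the Ensembl 115 annotation of WBcel235. The gene lists and the members were chosen with earlier results of these data known. Named genes are the 30 highest by RPKM and 15 by share of counts, the 5 highest of a class, 3 of a tissue list and 2 of a family, silent members of classes and tissue lists, and the 10 largest ratios each way between the libraries at 50 mean CPM or more. Any other named gene was chosen after its values were seen. No difference within a dose can be tested with 2 libraries. Class shares were set against the 4 irradiated libraries by an exact two-sided permutation test, with Benjamini-Hochberg adjustment over 7 classes. Libraries with the same replicate number deviated together from their dose means (correlations 0.563, 0.443 and 0.608). The numbers were therefore taken to pair them, and a permutation within replicate numbers was run as an alternative. That pairing was inferred from these same data. Class shares kept the order of the replicate numbers at every dose for ribosomal proteins, germline genes and muscle. For yolk, collagens and both sperm lists the order changed with dose. Alternatives covered thresholds, denominators, units, scalings, list members and single libraries.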

Additional observations from a re-analysis of the deposited data

How the results depend on the processing

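The number of detected genes lay between 9646 (5 CPM) and 16659 (0.1 CPM), and of silent genes between 22697 (0 counts in all 6 libraries) and 28334 (at most 3 counts), all within 1.5 times the values reported. Per length, class shares moved to 0.679% for yolk, 12.6% for ribosomal proteins, 0.0179% for major sperm proteins and 0.0357% for other sperm genes. Chosen after seeing the data, other sperm genes without spe-5, spe-15 and spe-39 held 0.0176%, and muscle without actins, unc-45, unc-60, unc-78 and pat-3 0.843%. Library medians (log2) moved to −0.25 for collagens and 0.046 for other sperm genes by totals, and −0.27 and 0.031 by upper quartile. The cause was not tested.

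Unirradiated minus irradiated shares, in percentage points, changed sign for 3 classes. Without single libraries the difference ran from −0.637 to 1.70 for yolk, from −1.20 to 0.765 for ribosomal proteins and from −0.742 to 0.859 for germline genes, while the other 4 classes stayed negative. Against 200 Gy alone the same 3 were 1.98, −2.43 and 0.639, and against 400 Gy alone −0.913, 1.99 and −0.521. All 3 thus had opposite signs at the 2 doses. In the permutation within replicate numbers (the replicate block, 9 arrangements, smallest p 0.111), the differences were those reported (−0.675 for muscle, −3.17 for collagens, −0.0186 and −0.0322 for the sperm lists, 0.532 for yolk, −0.221 for ribosomal proteins and 0.0586 for germline). There p was 0.111 for muscle and major sperm proteins, 0.222 for collagens and other sperm genes, 0.778 for yolk, 0.889 for germline and 1 for ribosomal proteins. Neither test could reach 0.05, so no call was possible with or without the block. Depth limits statements on genes under about 3 counts.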

Other observations

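Heat shock genes gave an uneven picture in these unirradiated worms. The small heat shock proteins of the hsp-16 family are chaperones that are known to be induced by heat and other stress. hsp-16.2 (chromosome V, 1804441 to 1804924) stood at 473 RPKM in library 1 and 608 in library 2, and its neighbour hsp-16.41 (V, 1805271 to 1805760) at 333 and 499 RPKM. hsp-70, an inducible member of the hsp70 family, was at 116 and 147 RPKM. All 3 were well above the median of 21.7 RPKM for detected protein-coding genes in both libraries. They were the only detected genes of the 9 listed, of which 4 lay between and 2 were silent. The other listed hsp70 genes, F44E5.4 and F44E5.5, were thus not detected. The copies hsp-16.1 and hsp-16.11 were listed at 0 in both libraries, hsp-16.48 had 0 and 2 counts and hsp-16.49 had 1 and 0 counts. hsp-16.1 and hsp-16.11 are copies of one gene, as are hsp-16.48 and hsp-16.49, and the handling of reads that fit both copies is not stated in the labels, so a count of 0 for them is uncertain. Of the metal-binding metallothioneins, mtl-1 had 12 and 19 counts and mtl-2 had 0 in both.

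Genes of pattern and regulation were present at low levels. All 6 Hox genes, which set position along the body in the embryo, were detected, with php-3 highest at 24.0 and 35.03 RPKM. Of 19 T-box genes 10 were detected and 3 were silent, and of 25 hlh genes 7 and 6. The shares over all protein-coding genes were 63.0% detected and 11.7% silent. Among Argonaute genes, which carry small RNAs, 8 of 11 were detected and none was silent, and wago-1, which acts with small RNAs in the germline, was at 297 RPKM in library 1 and 125 in library 2. Of 161 long intergenic non-coding genes named linc 27 were detected and 38 silent, and of 56 antisense genes named anr 27 and 7. Counts of an antisense gene and of the gene opposite to it cannot be told apart, because the kit does not mark strand. The mitochondrial genome was represented in the table by a single feature of 56 bases named COX1, with 10 and 19 counts.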
